A study of Citrus unshiu with 2 samples.

Results

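The plant cell wall is a network of cellulose fibres held in xyloglucan and pectin. Expansins, proteins with no cutting activity of their own, loosen this network during growth, and enzymes cut, rejoin or trim xyloglucan and pectin. Cellulose synthases spin cellulose at the cell surface, and glucan endo-1,3-beta-glucosidases cut callose, a glucan laid down at plasmodesmata, in sieve tubes and at sites of attack. In stems, wall loosening goes with the elongation and thickening of young tissue.

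The genes described here are the cell wall polysaccharide enzymes and expansins of satsuma mandarin (Citrus unshiu) stems. They are the 53 genes, of 2568 in the authors' annotated table and of 23159 measured, whose RefSeq or UniProt description holds 1 of 10 words such as expansin, pectinesterase or cellulose synthase. The samples were mature stems from shoots of wild-type trees, labelled Day 75 in both groups. The control trees had normal water, and the light drought trees stood in soil left to dry to a moisture of around 15%, with 20 trees set aside for each treatment. Both groups were grown under cover in root-limiting containers, in natural day length. The series compares the groups for genes of flowering branch formation. A single RNA-seq library stands for each group, made from an unstated number of trees. No difference below has a replicate check, and the conditions were not tested against each other.

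By description the 53 fall into 6 expansins, 7 xyloglucan endotransglucosylase/hydrolases (XTHs), 4 endoglucanases, 13 pectin genes, 7 glycosidases of wall side chains, 3 inhibitor proteins, 7 glucan endo-1,3-beta-glucosidases and 6 synthesis genes. The deposited Pfam domain was that of the named family for 47 of the 53. The other 6 were the 3 inhibitors, a pectinesterase 3 model with the inhibitor domain alone, a BURP domain protein described as a polygalacturonase beta-like subunit, and an acyl-esterase family protein. The Gene Ontology term cell wall was attached to 16 of the 53 genes and to 19 of all 2568, and extracellular region to 20 and 47.

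Levels are RPKM, reads per kilobase of exon scaled to the size of the library. Reads assigned to genes numbered 32856618 under normal water and 31760704 under light drought, and the 53 genes took 0.287% and 0.204% of them. Differences are log2((light drought + 0.5)/(control + 0.5)) on RPKM, called the log2 ratio, and a gene counts as lower or higher when this reaches 2-fold. Genes with an RPKM of at least 1 in either library are called kept. Intervals are exact 95% Clopper-Pearson intervals of the log2 RPKM ratio without the pseudocount. Their width reflects the number of reads alone and takes no account of variation among trees.

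The 53 genes were mostly less abundant in light drought stems, apart from a set of callose-cutting glucanases and a cellulose synthase-like gene. The log2 ratio was below 0 for 46 of the 53 (86.8%), against 57.9% of the genes of the annotated table, 57.6% of its genes with a description and 49.3% of all genes, with no expression minimum. Among the 44 kept genes, 12 were at least 2-fold lower and 3 at least 2-fold higher. The background is 2.12% lower and 0.882% higher over all 15654 kept genes. In the 2055 kept genes of the annotated table it is 14.9% lower and 5.99% higher, and in the 1397 of these with a description 14.6% and 5.58%. The annotated table is named by the authors for differential genes, so its genes already stand apart from the rest, and the table is the nearer background. The kept share of 27.3% lower lies above it, while 6.82% higher is close to it. The median log2 ratio of the 44 was -0.62, against -0.23 in the annotated table and 0.0024 over all kept genes. Of the 44, 4 were kept through the control library alone and 1 through light drought alone, so their difference follows in part from the minimum. The 4 include Cs7g03630 and Cs5g33170, which count among the 12 lower genes. The 9 genes under the minimum in both libraries all had ratios below 0.

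**Figure D1:**
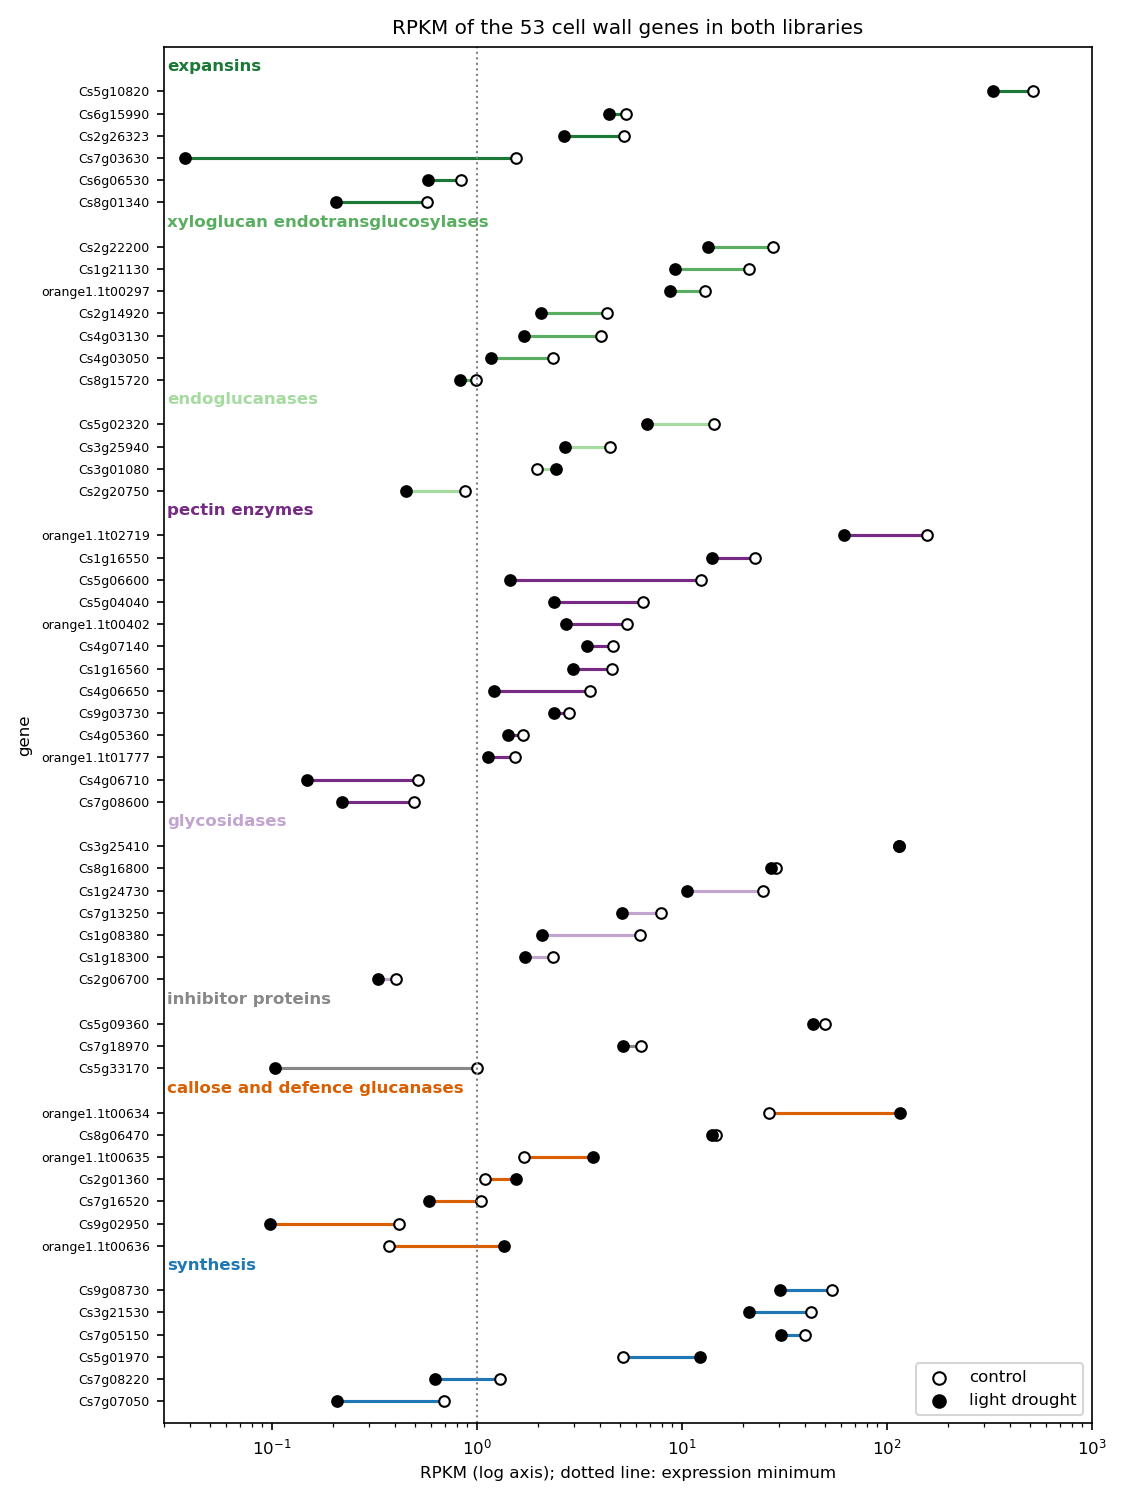
RPKM (log axis) of each of the 53 genes in the control library (open circles) and the light drought library (filled circles), by class; the dotted line is the minimum RPKM of 1. Filled circles lie left of open ones for 46 genes, and the exceptions are mostly glucanases.

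**Figure D2:**
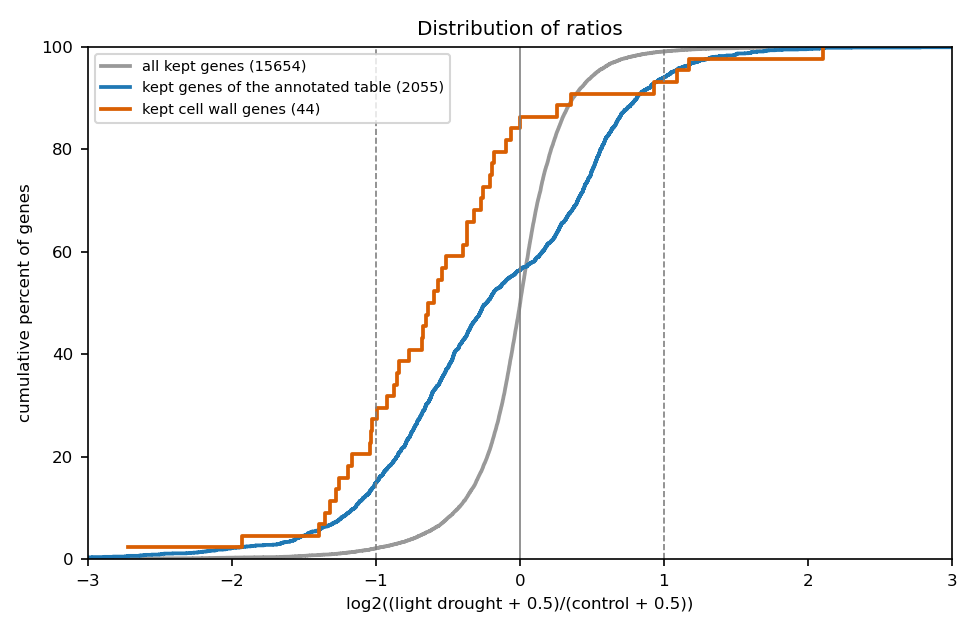
Cumulative percent of genes (vertical axis) by log2 ratio (horizontal axis) for the 44 kept cell wall genes, the 2055 kept genes of the annotated table and all 15654 kept genes; dashed lines mark 2-fold. At a ratio of 0 the curves stand at 84.1%, 56.4% and 49.6%.

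The expansins held the most abundant of these genes and a low one with 2 reads in light drought. An expansin-A1 gene (Cs5g10820, chromosome 5, 7645578 to 7647525, 3 exons) stood at RPKM 520 in the control and 330 in light drought, from 23649 and 14509 reads. Its log2 ratio was -0.66, under 2-fold, with an interval of -0.69 to -0.63. It ranked 91st of all genes in the control and 156th in light drought, and made up 97.5% of the summed control RPKM of the 6 expansins. A second gene described as expansin-A1 (Cs7g03630, chromosome 7, 1646581 to 1648661) stood at 1.55 in the control and 0.0377 in light drought, from 85 and 2 reads. Its log2 ratio was -1.93, and its interval of -8.43 to -3.46 shows how far the pseudocount understates a gene this low. It passed the minimum only through the control. These 2 genes carry the same description, yet their levels in the control differ by more than 2 orders of size.

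The other expansins were low. Expansin-like B1 (Cs2g26323) stood at 5.24 in the control and 2.67 in light drought (log2 ratio -0.86), and expansin-A13 (Cs6g15990) at 5.35 and 4.41 (-0.25). The interval of expansin-A13, -0.59 to 0.028, includes no difference. Expansin-A4 (Cs6g06530) and expansin-A20 (Cs8g01340) were under the minimum, with 51 and 46 control reads and 34 and 16 light drought reads. The exons of expansin-A20 share 45.0% of their length with a gene model on the other strand, and no source used here says whether counting used strand.

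XTHs cut a xyloglucan chain and join its end to another, and all 7 had ratios below 0. Of the 6 kept, 3 were at least 2-fold lower, against 14.9% of the kept genes of the annotated table. XTH9 (Cs2g22200), the most abundant, stood at RPKM 27.9 in the control and 13.5 in light drought (log2 ratio -1.02, interval -1.16 to -0.94). XTH6 (Cs1g21130) stood at 21.3 and 9.24, a log2 ratio of -1.16. One of a pair of genes described as XTH23 (Cs4g03130) stood at 4.05 and 1.70, a log2 ratio of -1.04. Its partner Cs4g03050, 33081 bases away on chromosome 4, stood at 2.34 and 1.17 (-0.77). The 3 measured gene models between the pair had at most 13 reads in either library. XTH5 (Cs2g14920) stood at 4.34 and 2.06, a log2 ratio of -0.92, and XTH27 (orange1.1t00297) at 12.9 and 8.76, a ratio of -0.54 and the nearest to 0 of the kept XTHs. XTH31 (Cs8g15720), just under the minimum, stood at 0.995 and 0.833. The 6 kept XTHs ran from -1.16 to -0.54, with a median of -0.97. The 4 kept expansins ran from -1.93 to -0.25, and from -0.86 to -0.25 without Cs7g03630, which had 2 light drought reads.

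Endoglucanases cut beta-1,4-glucan chains. The most abundant of the 4, a gene with a carbohydrate-binding domain (Cs5g02320), stood at 14.3 in the control and 6.74 in light drought (log2 ratio -1.03, interval -1.23 to -0.95). Cs3g25940 stood at 4.47 and 2.69 (-0.64), and endoglucanase 11 (Cs2g20750), under the minimum, had 62 and 31 reads. Endoglucanase 25 (Cs3g01080), whose namesake in Arabidopsis is the membrane-bound KORRIGAN enzyme of cellulose formation, went the other way at 1.96 and 2.44. Its gene model is 528 bases long and its interval, -0.37 to 1.02, includes no difference. Together the expansins, XTHs and endoglucanases had 5 of 13 kept genes at least 2-fold lower and none higher. The kept genes of the annotated table had 14.9% lower and 5.99% higher, so none higher among 13 says little. Among the 5, Cs7g03630 was kept through the control alone.

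Pectin genes held the lowest log2 ratio of the 53 on the scale with the pseudocount of 0.5. A pectate lyase (Cs5g06600, chromosome 5, 4103957 to 4106742), which cuts pectin that has lost its methyl groups, stood at RPKM 12.4 in the control and 1.45 in light drought, from 1075 and 122 reads. Its log2 ratio was -2.72, with an interval of -3.37 to -2.82 for the ratio without the pseudocount. Without it the expansin Cs7g03630 is lower, at -5.36 against -3.09 for the pectate lyase. All 13 pectin genes had ratios below 0, from -2.72 to -0.18, against 57.9% of the genes of the annotated table. Of the 11 kept, 4 were at least 2-fold lower, against 14.9% of the kept genes there.

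Pectinesterases strip methyl groups from pectin and set it up for either stiffening by calcium or cutting. The abundant one, described as a probable pectinesterase/pectinesterase inhibitor (orange1.1t02719, at 41823537 to 41827472 on the unplaced sequence chrUn), stood at 158 in the control and 61.7 in light drought (log2 ratio -1.35, interval -1.41 to -1.31). It made up 70.3% of the summed control RPKM of the 13 pectin genes. PPE8B (Cs4g06650) stood at 3.59 and 1.21 (-1.26). The gene described as pectinesterase 3 (Cs5g04040), whose only listed domain is the inhibitor domain, stood at 6.46 and 2.38 (-1.27). A neighbouring pair on chromosome 1, pectinesterase 1 (Cs1g16550) and Cs1g16560, lies 4193 bases apart with no measured gene model between. Pectinesterase 1 stood at 22.7 and 14.0, a log2 ratio of -0.68, and Cs1g16560 at 4.59 and 2.94, a ratio of -0.57. Cs4g06710, 31381 bases from PPE8B, had 36 reads in the control and 10 in light drought, with 2 low measured gene models between them.

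Polygalacturonases cut the demethylated pectin backbone, and none of the 5 genes described as probable polygalacturonases reached 2-fold. The lowest ratio was that of orange1.1t00402, at 5.39 in the control and 2.72 in light drought (-0.87). The other 4 had ratios between -0.37 and -0.18, and for Cs4g05360 (1.69 and 1.43) and Cs9g03730 (2.81 and 2.37) the intervals include no difference. Cs4g05360 and Cs4g07140 share 1 RefSeq record, though their models are 794 and 2048 bases long. Whether reads were split between them could not be checked without sequences. The BURP domain protein (Cs7g08600) had 42 and 18 reads, under the minimum.

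Among the 6 kept glycosidases that trim wall side chains, 2 were at least 2-fold lower and none higher. The shares in the kept genes of the annotated table are 14.9% and 5.99%, and 6 genes are few to compare with them. Beta-galactosidase 10 (Cs1g08380) stood at RPKM 6.28 in the control and 2.08 in light drought (log2 ratio -1.39). Beta-galactosidase 3 (Cs1g24730) stood at 25.05 and 10.7 (-1.19, interval -1.33 to -1.14). The most abundant, a beta-galactosidase with no number in its name (Cs3g25410), stood at 115 in both libraries, with a log2 ratio of 0.00011 and an interval of -0.030 to 0.031. Its exons share 58.4% of their length with a model on the other strand, Cs3g25420, at 114 and 131. Beta-galactosidase 8 (Cs8g16800) stood at 29.0 and 27.1 (-0.093). Beta-galactosidases 3 and 10 are thus at least 2-fold lower while 2 abundant genes of the same family differ by under 0.1 on the log2 scale. Alpha-xylosidase 1 (Cs7g13250), which removes xylose from xyloglucan, stood at 7.96 and 5.09 (-0.60). A further beta-galactosidase (Cs1g18300) stood at 2.37 and 1.73, and a second beta-galactosidase 8 (Cs2g06700) was under the minimum with 38 and 30 reads.

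The 3 inhibitor proteins are described as inhibitors of pectinesterase or of polygalacturonase. Pectinesterase inhibitor 10 (Cs5g09360) was the abundant one, at 50.2 in the control and 43.9 in light drought (log2 ratio -0.19). The polygalacturonase inhibitor (Cs7g18970), a leucine-rich repeat protein, stood at 6.37 and 5.19 (-0.27). Pectinesterase inhibitor 6 (Cs5g33170) was at least 2-fold lower, at 1.01 and 0.104 (-1.32), from 40 and 4 reads, with an interval of -5.22 to -1.81. It passed the minimum only through the control.

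**Figure D3:**
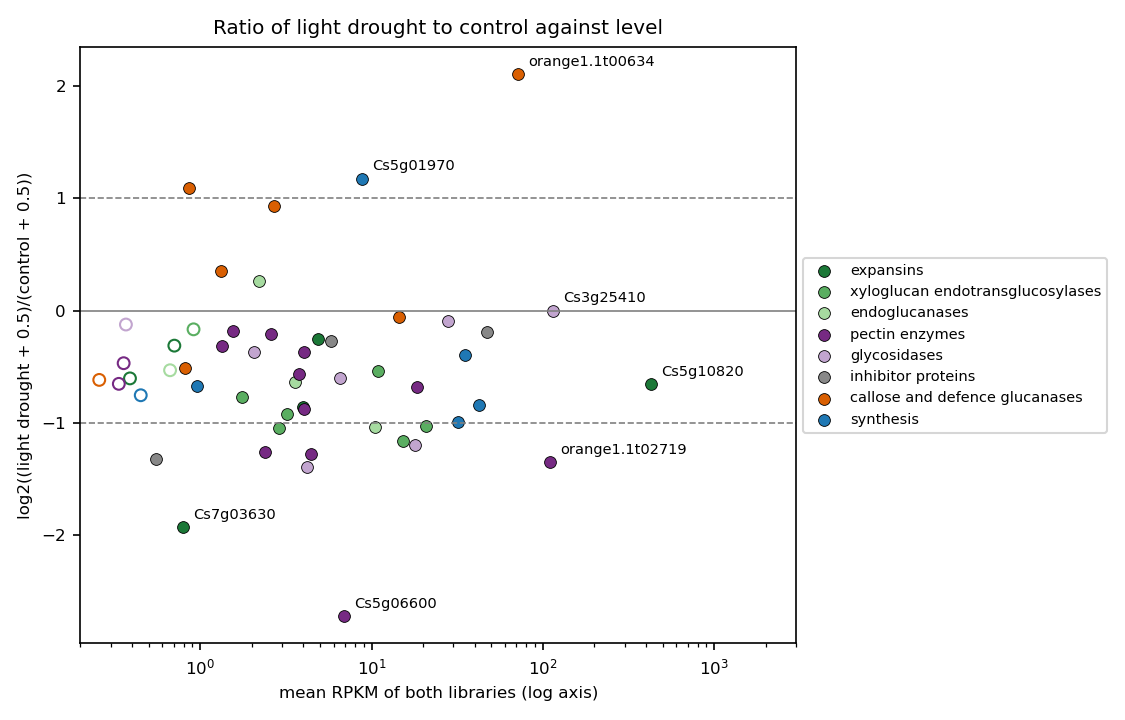
Log2 ratio of light drought to control (vertical axis) against the mean RPKM of both libraries (horizontal log axis) for the 53 genes, coloured by class; open circles are under the minimum and dashed lines mark 2-fold. On this scale the pectate lyase Cs5g06600 is lowest at -2.72 and the glucanase orange1.1t00634 highest at 2.11.

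Among the 5 kept synthesis genes 1 was at least 2-fold higher and none lower. With shares of 5.99% higher and 14.9% lower in the kept genes of the annotated table, counts among 5 say little. The cellulose synthase subunits CESA1 (Cs7g05150) and CESA2 (Cs3g21530), which in Arabidopsis serve the primary wall, stood at RPKM 40.2 and 42.9 in the control. In light drought CESA1 stood at 30.5, a log2 ratio of -0.39, and CESA2 at 21.3, a ratio of -0.99 that falls just short of 2-fold and passes it, at -1.01, with a pseudocount of 0.1. The intervals, -0.46 to -0.34 for CESA1 and -1.07 to -0.95 for CESA2, do not overlap.

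The cellulose synthase-like G genes went opposite ways. This family is not known to make cellulose, and relatives in legumes and spinach attach a sugar acid to triterpenoids. CSLG2 (Cs9g08730) stood at 54.4 in the control and 30.2 in light drought (log2 ratio -0.84). CSLG3 (Cs5g01970, chromosome 5, 790668 to 794575) stood at 5.17 and 12.3, from 427 and 982 reads, and was at least 2-fold higher (1.17, interval 1.09 to 1.42). CSLG3 is the only one of the 6 synthesis genes with a ratio above 0. The rest act on xyloglucan. Xyloglucan glycosyltransferase 5 (Cs7g07050), of the enzymes that build the backbone, had 76 and 22 reads, and ALTERED XYLOGLUCAN 4 (Cs7g08220), which acetylates xyloglucan in Arabidopsis, stood at 1.30 and 0.627 (-0.67).

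The glucan endo-1,3-beta-glucosidases were the class with the most genes above the control. The basic isoform (orange1.1t00634, at 7282281 to 7284103 on the unplaced sequence chrUn), a kind of glucanase known from defence, stood at RPKM 26.6 in the control and 116 in light drought, from 1089 and 4596 reads. Its log2 ratio was 2.11, with an interval of 2.03 to 2.22, and its rank among all genes went from 3411 to 645. The next gene along, orange1.1t00635, stood at 1.70 and 3.70 (0.93, just short of 2-fold, and 1.08 with a pseudocount of 0.1). The one after, orange1.1t00636, stood at 0.372 and 1.36 (1.09, interval 1.11 to 2.69), from 19 and 67 reads.

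No measured gene model lies between these 3 neighbours, which are 25253 and 25378 bases apart and on the same strand. The flanking models orange1.1t00633, with 5 control and 7 light drought reads, and orange1.1t00638, at RPKM 90.6 and 79.4, did not reach 2-fold. The genes orange1.1t00635 and orange1.1t00636 share 1 RefSeq record, and whether reads were split between them could not be checked without sequences. The gene orange1.1t00636, with the lowest level, passed the minimum only through light drought.

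**Figure D4:**
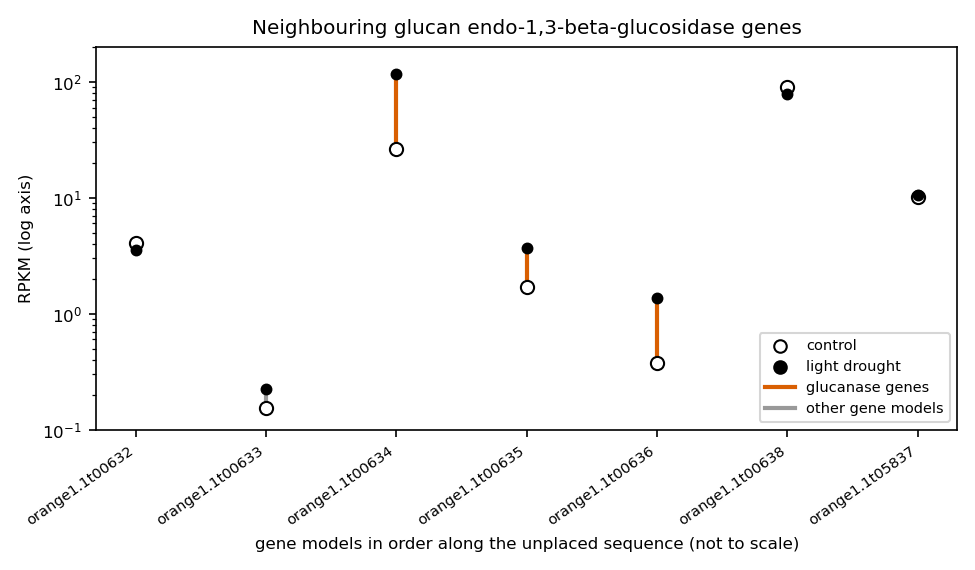
RPKM (log axis) in the control (open) and light drought (filled) of the 3 neighbouring glucanase genes (orange lines) and of 2 measured gene models on either side (grey lines), in order along the sequence but not to scale. The 3 glucanases lie higher in light drought, by log2 ratios of 2.11, 0.93 and 1.09.

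Among the 4 other glucanases, all of which carry a callose-binding X8 domain, none was at least 2-fold higher. Glucanase 7 (Cs8g06470) stood at 14.7 in the control and 14.1 in light drought (-0.060), with an interval of -0.22 to 0.097. Glucanase 5 (Cs2g01360) had 94 control and 128 light drought reads (0.36), but 67.7% of its exon length is shared with a model on the other strand, Cs2g01350, whose ratio is 0.66. The A6 glucanase (Cs7g16520) stood at 1.05 and 0.584 (-0.51), and glucanase 4 (Cs9g02950) had 44 and 10 reads. The class median of 0.65 over 6 kept genes rests on the 3 neighbours, and was -0.060 over the 3 kept genes without them.

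Summed by class, the levels were carried by 1 gene in some classes and shared among several in others. The expansins summed to RPKM 533 in the control and 338 in light drought, nearly all from Cs5g10820. The XTHs, with no such dominant gene, summed to 73.9 and 37.2, and the endoglucanases to 21.6 and 12.3. Pectin genes summed to 225 and 95.2, and to 66.8 and 33.5 without orange1.1t02719. Glycosidases summed to 186 and 162, inhibitors to 57.6 and 49.2 and synthesis genes to 145 and 95.2. The glucanases alone summed to more in light drought, 137 against 45.9, and without orange1.1t00634 to 21.3 against 19.3. The most abundant gene held 37.7% of the control sum of the XTHs and 37.6% of that of the synthesis genes, the smallest such shares. These sums are no measure of the wall itself.

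**Figure D5:**
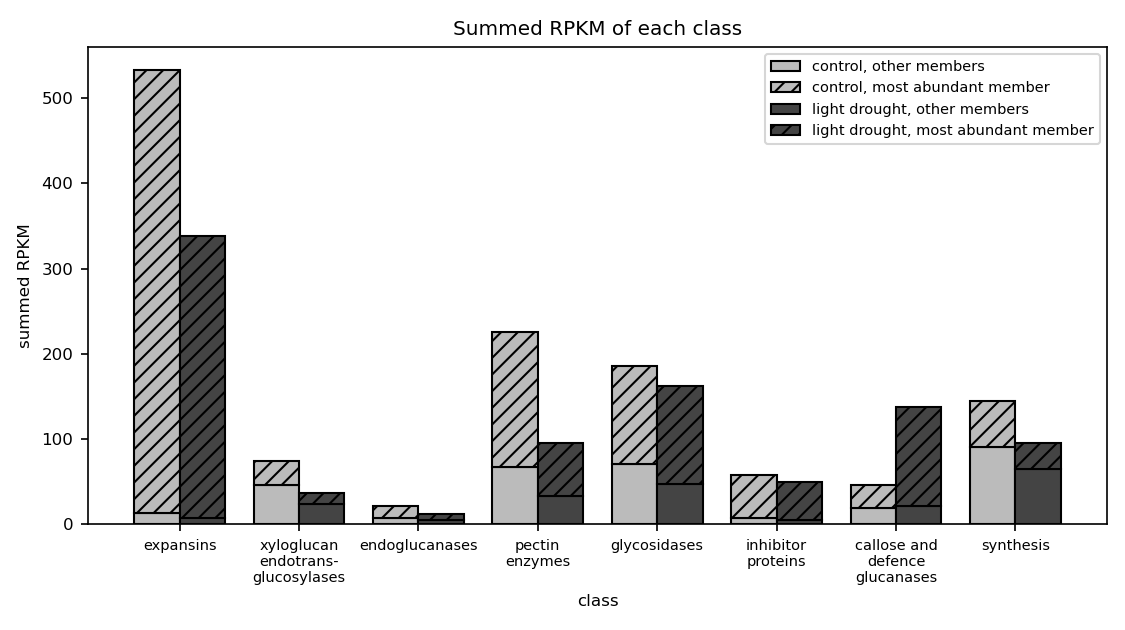
Summed RPKM (vertical axis, from 0) of each class in the control (light bars) and light drought (dark bars), with the hatched part being the class's most abundant gene in the control. Pectin genes go from 225 to 95.2 and glucanases from 45.9 to 137.

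The authors' deposited table gives statistics of light drought against control for 25 of the 53 genes, 21 lower and 4 higher, and for 31.9% of its 2568 genes. These are 47.2% of the 53. A false discovery rate of at most 0.05 is listed in the authors' deposited table for 24 genes, which is 45.3% of the 53 against 27.9% of the table, and the BURP domain protein has 0.103. The authors' deposited table gives the pectate lyase Cs5g06600 a log2 fold change of -3.09 and the expansin Cs7g03630 one of -5.28. It gives orange1.1t00634 2.13 and CSLG3 1.25. The 5 genes under the minimum that have statistics in the authors' deposited table are expansin-A20, Cs4g06710, the BURP protein, glucanase 4 and xyloglucan glycosyltransferase 5, all lower. With 1 library a group these statistics carry no spread between trees.

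Genes with the same Pfam domain but no telling description fall outside the 53, and they were looked at after values were seen. The annotated table holds 8 genes with the pollen allergen domain that forms the C-terminal part of an expansin, of which 6 are the named expansins. The other 2, Cs5g07852 (chromosome 5, 5090550 to 5091562) and Cs5g07856 (5115259 to 5116847), are described as uncharacterized and carry both expansin domains. Cs5g07852 stood at RPKM 749.8 in the control against 1499.9 in light drought, with a log2 ratio of 0.9998, just short of 2-fold. Cs5g07856 stood at 245 and 544, a ratio of 1.15 with an interval of 1.11 to 1.19. Both lay above the most abundant named expansin in light drought, and their ratios were above 0 while those of all 6 named expansins were below 0. The 8 genes with the domain summed to 1528 in the control and 2381 in light drought, so the direction of the expansin sum depends on whether these 2 are counted. Cs5g07854, between them, carries no description in the files used here and stood at 1060 and 1733.

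The glucanase domain, family 17, was found in 5 more genes of the annotated table. Of these Cs2g20640 (7.95 in the control and 3.53 in light drought, -1.07) and Cs3g27500 (1.61 and 0.166, -1.66) were at least 2-fold lower. The abundant Cs4g09780 stood at 156 and 114 (-0.45). These 3 carry the X8 domain, as do glucanases 4, 5, 7 and A6. The remaining 2, orange1.1t00643 and orange1.1t00647, have no X8 domain and had ratios of 0.23 and 0.19, with intervals that include no difference. The pectinesterase inhibitor domain was found in 6 more genes, all with ratios below 0, and Cs9g14380 (14.4 and 4.96, -1.45) and Cs7g09050 (1.27 and 0.117, -1.52) were at least 2-fold lower.

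Other cell wall genes of the annotated table, matched by text patterns, were read against its background of 14.9% lower and 5.99% higher. Among helpers of cellulose and callose formation, 3 of 9 kept genes were lower and none higher, with a median log2 ratio of -0.92. They include a sucrose synthase (Cs4g06850), which supplies UDP-glucose, at RPKM 128 in the control and 48.6 in light drought, and callose synthase 3 (orange1.1t02029), at 10.7 and 4.95. The 3 genes described as COBRA, an anchored protein of cellulose orientation, had ratios from -0.92 to -0.72. Among structural wall proteins 3 of 9 were lower and none higher, with a median of -0.83. Of the 3 lower, Cs6g20210 (1.38 and 0.333) is described as a basic salivary proline-rich protein and is there by its name alone. Cs1g17860, also among the 3, is described as a pollen-specific extensin-like protein. The extensin Cs6g11570, by far the most abundant in this list, stood at 1421 and 1013 (-0.49).

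Among genes matched to pectin and xylan synthesis 3 of 11 were lower and 1 higher, with a median of -0.55. They include galacturonosyltransferase-like 10 (Cs2g28760), at 34.1 and 12.9, and UDP-glucuronate 4-epimerase 5 (Cs5g09480), the higher one, at 0.735 and 2.37. An acetyltransferase of alkaloid synthesis is among the 11 by a chance match of its name. The beta-glucuronosyltransferase GlcAT14A (Cs5g27340, -1.33), 1 of the 3 lower, is also there by its name alone. Among 10 genes matched to peroxidase for lignin polymerisation 5 were lower and none higher, with a median of -1.01, but 3 of the 10 are ascorbate or glutathione peroxidases, which do not act on lignin. Among 10 other wall hydrolases none was lower and 1 was higher, an acidic endochitinase (Cs9g14710) at 2.89 and 7.10, with a median of -0.41. Most of the 10 are chitinases or described as chitinase-like, and 7 of the 10 had ratios below 0. Besides the acidic endochitinase, those above 0 were alpha-L-arabinofuranosidase 1 (Cs6g16270, 8.87 and 13.7, 0.60) and an alpha-galactosidase (Cs2g12350, 0.595 and 1.06, 0.51). Cs8g01840, described as endochitinase-like, and Cs5g24680, described as chitinase-like protein 1, count in both this list and that of the helpers. Cs8g01840 is among the helpers by a match within its name, and holds 71.6% of their summed control RPKM.

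Genes matched to other cell types were sought in the annotated table alone. That table is named for differential genes, so that the matches differ follows in part from where they were sought. Of its genes 57.9% had ratios below 0, with no expression minimum. Genes matched to dividing cells (13, of which 8 kept) all had ratios below 0, and their summed RPKM was 23.4 in the control and 12.6 in light drought. They include cyclin-D3-1 (Cs3g23120), at 1.88 and 0.392, and a cyclin-dependent kinase (Cs5g16725) matched by its name alone. Genes matched to green tissue (25, all kept) had ratios above 0 except for 1, and summed to 645 and 929. Those matched to vascular and secondary wall were 6 fasciclin-like arabinogalactan proteins that summed to 31.8 and 16.8, with no laccase or secondary wall cellulose synthase among the matches, so the stem identity could not be checked on those. All 6, and the pollen match, are also in the list of structural wall proteins above. The 6 phloem matches summed to 10.2 and 8.74, 6 floral organ matches to 19.3 and 10.5, and 7 root matches to 91.2 and 73.8. Without the most abundant gene of each, phloem summed to 5.25 and 6.07 and root to 44.5 and 54.4, the other direction. Floral organs then summed to 7.82 and 5.43. Ratios were below 0 for 2 of the 6 phloem, 4 of the 6 floral organ and 5 of the 7 root matches. An F-box protein (Cs9g10740) is among the phloem matches by its name alone. Among the root matches by name alone are root UVB sensitive 6 (Cs3g01630) and SODIUM POTASSIUM ROOT DEFECTIVE 2 (Cs6g05460). Cs3g01630 holds 51.2% of the summed control RPKM of the root matches. The single pollen match stood at 6.99 and 2.91. None of the matched genes was at 0 in either library. The part of cell composition in the wall gene ratios was not tested, and in bulk tissue fewer cells of a type and less RNA per cell cannot be told apart.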

How the data were processed

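RPKM values were deposited by the authors for 23159 genes in 1 control and 1 light drought library of stems. Per the labels' protocols, a stranded mRNA kit was used, and the submitters' processing notes name Trimmomatic 0.36. The sources used here do not give the aligner, counter, genome build or use of strand, and coordinates are as in the files. The p-values, false discovery rates and log2 fold changes of the annotated table were deposited by the authors, with no test named.

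Multiplying RPKM by gene length recovered read numbers that were whole to within 0.01 for 100% of values above 0, and these gave the library totals and the intervals. The floor of 3 reads equals RPKM 0.0540 (control) and 0.0558 (light drought) for a gene of median length, 1692 bases. Intervals and floors cover counting error only, since reads were not tied to single molecules.

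Classes come from the first matching word of the descriptions. Named with values were all genes at least 2-fold apart, the 3 most abundant and the one nearest 0 of each class, the authors' largest changes and neighbours. Some other genes were named after their values were seen. The members and lists were chosen with earlier results of these data known. The measures were tested on simulated reads drawn with counting error alone, with changes placed only in the more abundant genes. That test does not bear on variation among trees or on genes with few reads. Alternatives were other pseudocounts, minimums, thresholds, scalings and membership rules. A reference table of locus tags matched 0 identifiers and held no sequences, so none are shown. Python 3.11.15, numpy 2.4.6, pandas 2.3.3, scipy 1.17.1 and matplotlib 3.10.9 were used.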

Additional observations from a re-analysis of the deposited data

How the results depend on the processing

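No paired analysis was possible because a single library stands for each condition, so none could be left out either. The reported counts are 12 lower and 3 higher of the 44 kept cell wall genes. They include 5 lower loosening genes (expansins, XTHs and endoglucanases), 4 lower pectin genes and 2 higher glucanases. A pseudocount of 1 gave 8 lower and 2 higher genes in all, with 2 lower loosening genes and 1 higher glucanase. A pseudocount of 0.1 gave 14 lower and 4 higher genes, with 6 lower loosening genes, 3 higher glucanases and 1 lower synthesis gene, where CESA2 and orange1.1t00635 pass 2-fold. A minimum RPKM of 5 gave 8 lower and 2 higher genes, with 3 lower loosening genes and 1 higher glucanase. By construction, a 1.5-fold threshold gave 23 lower genes, 10 of them loosening, and a 4-fold threshold gave 1 lower (a pectin gene), 0 loosening and 1 higher (a glucanase). Requiring a matching word in both descriptions, which 16 genes have, gave 7 lower, 0 higher, 3 loosening, 2 pectin and 0 glucanase genes. The authors' false discovery rate of at most 0.05 gave 20 lower genes, 8 of them loosening. Chosen after seeing the data, leaving out the 3 neighbouring glucanases gave 1 higher gene, 0 higher glucanases and a glucanase median of -0.060, reversed from 0.65, while keeping only genes with the family's own Pfam domain gave 10 lower and 3 higher. The median of the kept cell wall genes stayed between -1.02 and -0.54 in every setting that gave one. Rescaling to equal sums, which also changes the weight of the pseudocount and the minimum, gave 14 lower and 3 higher genes. Of 245 single gene ratios under other settings 242 moved by less than 0.5 of the width of their counting interval, and the sign changed for 1 gene only, the beta-galactosidase Cs3g25410. Settings with another minimum leave each ratio as it was, so their part of the 245 could not move. Scaling to a median log2 ratio of 0 removed only 0.0024, so it could move them little. Depth limits the genes with few reads most, such as the expansin Cs7g03630 with 2 and the inhibitor Cs5g33170 with 4 in light drought.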
